A study of Homo sapiens with 9 samples.

Results

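The control arm of an RNA-seq experiment on VCaP cells is described here. VCaP is an established human prostate cancer line, derived from a metastasis, that responds to androgen and carries the TMPRSS2-ERG gene fusion. The control arm consists of the 3 libraries labelled CTRL, out of 9 libraries in all, and it was chosen by its label and not by any measured value. Its cells are labelled KMT2C normal and received a control siRNA for 4 days in DMEM with 10% serum. The other libraries received siRNAs against KMT2C, which encodes a histone methyltransferase, and are not compared here. The labels do not say whether the 3 control libraries came from separate cultures, and no untransfected cells were part of the data used, so the values describe siRNA-transfected VCaP cells and their spread may be technical. The levels are those of bulk RNA, in which fewer cells expressing a gene and less RNA per cell cannot be told apart.

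Luminal cells of the prostate epithelium are secretory cells whose identity is held by androgen signalling together with factors such as FOXA1 and HOXB13. Androgen raises the transcription of secreted proteases of the kallikrein family, of TMPRSS2 and of many metabolic genes. In fusion-positive prostate cancers the start of TMPRSS2 is joined to ERG, an ETS transcription factor of endothelial and blood cells, so that ERG comes under androgen control.

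Library totals were 58462215, 67445316 and 70726213 estimated counts, of which about 4 were taken to stand for 1 sequenced fragment. Counts above 0 were found for 24651 to 24878 genes. Levels are given in FPKM, fragments per kilobase of exon scaled for depth, as mean ± SD over n = 3 libraries or as the values of control 1, 2 and 3 in that order. A gene is counted as expressed at 1 FPKM or more in all 3 libraries. By this measure 11197 of 60612 genes (18.5%) were expressed. Among protein-coding genes the share was 9834 of 19673 (50.0%), and among all other genes 1363 of 40939 (3.33%). The counts of expressed members in the lists below are to be read beside these shares. Another 1434 genes reached 1 FPKM in some but not all of the libraries, and 31494 genes had no counts in any. Mitochondrial genes took 10.6% ± 0.501 of the counts and, being short, 36.0% ± 1.16 of the summed FPKM.

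The RNA of control VCaP cells was concentrated in few genes. The 100 genes with the highest mean held 50.0% ± 1.14 of the summed FPKM and the 10 highest held 28.2% ± 1.11. The 29 genes above 1000 FPKM, 18 of them mitochondrial, held 39.2% ± 1.13, and the 254 genes between 100 and 1000 FPKM held 19.9% ± 0.190. A further 3383 genes between 10 and 100 FPKM held 28.5% ± 0.762. The largest class of genes above 1 FPKM, the 8241 genes between 1 and 10, held 11.3% ± 0.281. The 17211 genes with counts but a mean below 1 FPKM held 1.09% ± 0.0419. The share of the 100 highest genes depended on the mitochondrial genome, since it was 25.3% when nuclear genes alone were ranked. Classes also moved with the length used. Per the values, the deposited FPKM divides by the joined exons of all transcripts for most genes. Of 12073 genes checked in control 1, 77.4% lay within 2% of that length. Per length of the principal transcript, 47 genes lay above 1000 and 431 between 100 and 1000.

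**Figure D1:**
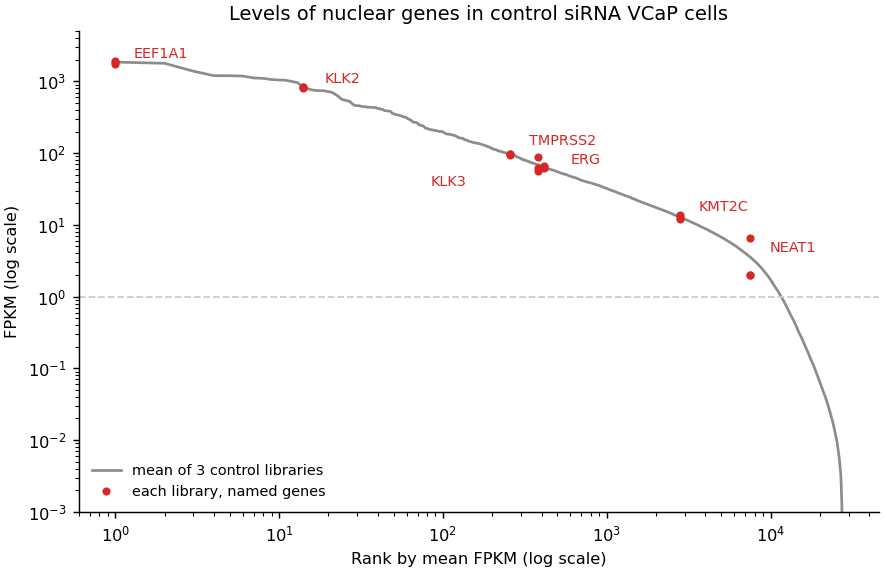
Mean FPKM of every nuclear gene of at least 300 bases against its rank, both on log scales (grey line), with the 3 control libraries as points for 7 named genes and a dashed line at 1 FPKM. KLK2 stands at rank 14 with its libraries between 800.4 and 848, and KLK3 and ERG share the same stretch of the curve near rank 400, with KLK3 more widely spread.

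KLK2, a secreted kallikrein protease, was among the most abundant transcripts of these cells. It measured 848, 800.4 and 836 FPKM (828 ± 24.99), rank 14 among nuclear genes of at least 300 bases. KLK3, which encodes prostate-specific antigen, measured 55.8, 62.2 and 88.7 FPKM (68.9 ± 17.4, rank 382). Control 3 was the highest for KLK3 and not for KLK2, so the ratio of KLK2 to KLK3 was 15.2, 12.9 and 9.43 (12.5 ± 2.90). The order of both genes was the same in every library, but the size of the ratio depends on the length used. By its counts and FPKM, KLK2 was divided by 6344 bases against 3019 in its principal transcript, and KLK3 by 4635 against 1463. Per principal length the levels were 1741 for KLK2 and 218 for KLK3, a ratio of 7.97. The genes share much of their sequence, and how the authors' counting split reads between them is not given in the sources used here.

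Both genes lie head to tail on the plus strand of chromosome 19, KLK3 (ENSG00000142515) at 50854915 to 50860764 and KLK2 (ENSG00000167751) at 50861568 to 50880567 on GRCh38. Their promoters show how alike this pair is at the level of sequence. The 250 bases before the RefSeq start of each gene (GRCh38.p14, plus strand, chr19:50854665-50854914 for KLK3 and chr19:50873189-50873438 for KLK2) are printed below, with capitals marking GAACAGCAAGTGCT, known from the KLK3 promoter as an androgen response element, and TTTATA, the reverse complement of the TATA motif TATAAA.
KLK3: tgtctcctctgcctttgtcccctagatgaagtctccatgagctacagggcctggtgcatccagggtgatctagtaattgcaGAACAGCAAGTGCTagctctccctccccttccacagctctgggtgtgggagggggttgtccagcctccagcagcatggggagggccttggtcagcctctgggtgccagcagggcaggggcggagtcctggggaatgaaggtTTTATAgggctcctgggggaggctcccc
KLK2: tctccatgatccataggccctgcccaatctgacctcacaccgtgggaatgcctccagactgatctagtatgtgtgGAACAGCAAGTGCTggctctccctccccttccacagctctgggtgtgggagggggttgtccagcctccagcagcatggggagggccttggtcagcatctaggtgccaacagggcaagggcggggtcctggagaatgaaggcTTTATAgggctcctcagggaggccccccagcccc
The promoters were identical at 196 of 219 aligned bases (89.5%). The androgen element begins 169 bases before the start of KLK3 and 175 before that of KLK2, and TTTATA begins 28 and 34 bases before. Searched on both strands, the 14 letters of the element occurred in 2 of 27305 RefSeq promoter windows of equal length, those of KLK3 and KLK2, and TATAAA in 11.1% of them. The letters of the element were read from the KLK3 promoter, so its own match was given in advance. A match of letters is a description and shows no binding. The RefSeq start of KLK2 lies inside the span that the table gives for the gene, so the level of KLK2 may include transcripts that start further upstream.

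Of the 15 kallikrein genes of the cluster, 4 were expressed. KLK4, which lies beyond KLK2 and is another androgen-regulated protease of the prostate, measured 35.02, 35.01 and 35.8 FPKM. KLK15, on the other side of KLK3, measured 1.56, 1.65 and 1.69. KLK2 alone made up 88.6% of the summed mean FPKM of the cluster. The genes from KLK5 onwards were at or near 0: KLK14 was the highest of them with 0.281 ± 0.112, and 8 of the 15, KLK1 and KLK5 among them, had no counts in any library. Expression was thus limited to the KLK15 to KLK4 end of the cluster, with KLK1 beyond it listed at 0.

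TMPRSS2, a membrane-bound serine protease and the 5′ partner of the fusion, measured 94.4, 96.7 and 98.1 FPKM (96.4 ± 1.86, rank 257). ERG measured 65.7, 63.0 and 63.1 FPKM (63.9 ± 1.52, rank 413). Both were among the steadiest of the markers, and their libraries did not overlap. The ratio of TMPRSS2 to ERG was 1.51 ± 0.0629, and 1.47 per principal length. The gene totals do not separate fused from unfused transcripts, so the share of ERG RNA that starts in TMPRSS2 was not tested. KLK3 at 55.8 to 88.7 overlapped ERG, and on this scale their order is not beyond their spread. Per principal length KLK3 stood above both, at 218 against 145 for TMPRSS2 and 98.4 for ERG.

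TMPRSS2 and ERG lie on the minus strand of chromosome 21, ERG (ENSG00000157554) at 38380027 to 38661694 and TMPRSS2 (ENSG00000184012) at 41464305 to 41531098. Between them the table holds 16 protein-coding genes, of which 9 were expressed (against 50.0% of all protein-coding genes), with a median of 1.49 FPKM. The highest was HMGN1, a nucleosome-binding protein, with 42.9, 45.4 and 37.3 FPKM. All 16 stood below both fusion partners. Next to ERG, ETS2, another ETS factor, measured 1.61 ± 0.0792 and the potassium channel gene KCNJ15 0.00615 ± 0.00219. Next to TMPRSS2, MX1 and MX2, both interferon-induced, measured 0.302 ± 0.0216 and 0.0259 ± 0.00598. Among the 9 expressed genes B3GALT5, a glycosyltransferase, had the largest CV, with 9.39, 1.604 and 5.05 FPKM.

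Nearly the whole list of luminal prostate genes was expressed. This list and those below were chosen with earlier results of these data known, so their counts are a description. Of 28 luminal members, 26 were expressed, and all 26 had a mean above 10 FPKM. The median was 63.2 over the list against 1.21 over all protein-coding genes. The transcription factors of the lineage were high, and FOXA1, SPDEF and GRHL2 among them were steady. HOXB13, a prostate homeobox factor, measured 191, 177 and 216 FPKM. GATA2 measured 131 ± 11.1 and FOXA1, a pioneer factor that opens chromatin, 125 ± 1.40. SPDEF and GRHL2, both epithelial factors, measured 62.4 ± 1.53 and 55.6 ± 0.767. Members from FOXA1 on that are not among the 6 highest of a list were chosen after their values were seen, here and for the lists below.

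Luminal enzymes and surface proteins lay in the same range. ACP3, prostatic acid phosphatase, measured 157, 155 and 145 FPKM. STEAP1 measured 113 ± 8.37, EPCAM 99.2 ± 2.60 and FOLH1, which encodes prostate-specific membrane antigen, 64.0 ± 5.56. The luminal keratins were lower, with KRT19 at 42.9 ± 12.2, KRT18 at 40.9 ± 6.66 and KRT8 at 32.3 ± 1.62. The lowest expressed member was the ion channel gene TRPM8 with 9.63, 11.7 and 11.0. The list was not complete: MSMB, a major secretory protein of benign prostate, had 0, 0 and 0.194 FPKM, and NEFH 0.127, 0.135 and 0.105. The summed level of the list, of which KLK2 is the largest member, was 2815, 2741 and 2857 FPKM, while KLK3 and KRT19 differed more between libraries.

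Of 22 nuclear receptors and coregulators 16 were expressed (72.7%, against 50.0% of all protein-coding genes). Among the highest were NR2F6 at 32.6 ± 0.994 and the coactivator NCOA4 at 30.1 ± 1.07. The corepressor NCOR1 measured 25.8 ± 0.626 and the coactivator NCOA2 20.9 ± 0.154. Several steroid receptors were below the threshold: the glucocorticoid receptor NR3C1 measured 0.793 ± 0.165 FPKM, the progesterone receptor PGR 0.237 ± 0.0591 and the oestrogen receptor ESR1 0.00879. MED1, a Mediator subunit that binds nuclear receptors, was unsteady, with 15.7, 7.33 and 15.7.

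Among 32 matched androgen-induced genes 25 were expressed (78.1%, against 50.0% of all protein-coding genes). The median of the list was 13.7 FPKM, well below that of the luminal list. Beside KLK2 and TMPRSS2, PMEPA1, a negative regulator of TGF-beta signalling, measured 147, 154 and 118 FPKM, and NDRG1 140, 128 and 149. Members at lower levels included the elongation factor ELL2 at 53.2 ± 1.61 and FKBP5, a cochaperone of steroid receptors and a widely used androgen readout, at 8.30 ± 0.504. These values were measured in medium with serum and no androgen comparison was part of the libraries, so they say nothing of induction.

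Of 17 genes that are associated with ERG fusion in prostate cancer 13 were expressed (76.5%, against 50.0% of all protein-coding genes). The median of the list was 7.67 FPKM. CRISP3, a secreted cysteine-rich protein, was the highest with 154, 162 and 106 FPKM. PLA1A, a phospholipase, measured 56.2, 53.2 and 54.1. AMACR, a racemase used as a tissue marker of prostate cancer, measured 30.4, 30.05 and 33.6, and TDRD1, otherwise a germ cell gene, 27.7, 26.6 and 27.0. SPINK1, a marker usually seen in fusion-negative tumours, met the threshold but was low with 2.87, 1.96 and 1.71 FPKM. The share of expressed genes takes no account of the direction of association. TFF3 stayed under the threshold with 0.300, 0.717 and 0.541.

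Of 18 matched long noncoding RNAs named in prostate cancer 7 were expressed, with a median of 0.733 FPKM, beside 3.33% of all genes that are not protein-coding. PCAT14 was the highest with 97.8, 94.6 and 98.7 FPKM, at the level of TMPRSS2. SCHLAP1 lay at the threshold with 1.01, 0.971 and 1.08. PCA3, the noncoding RNA used in urine tests for prostate cancer, measured 0.00796 ± 0.000869.

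Markers of other cell types were mostly at or near 0. Over 17 lists of other tissues and cell types, 29 of 237 distinct genes (12.2%) were expressed and 79 had no counts. A mean above 10 FPKM was reached by 7 genes. Among these was CLDN4 with 58.04, 0.954 and 8.47 FPKM, which is not counted as expressed. The median was 0.0216 FPKM. Of 20 immune markers and 24 retinal markers none was expressed. The retinal list, examined because the series' design text names retinal RNA, had 13 members at 0 and a summed level of 1.302, 1.21 and 1.29 FPKM. The summed level of the immune list was 2.09, 1.64 and 1.101, with CD14 as its highest member at 0.516 ± 0.0486. None of 10 lung, 10 kidney and 10 muscle markers was expressed.

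Other epithelial classes of the prostate were represented by a few members each. Of 16 basal markers 3 were expressed: ITGA6, an integrin, at 11.8 ± 1.84 FPKM, KRT14 at 2.48 ± 0.136 and DST at 2.24 ± 0.0815. The defining basal genes KRT5 and TP63 measured 0 and 0.00484 on average. Of 14 club and hillock markers 3 were expressed, of which SLPI, a secreted protease inhibitor, reached 118, 131 and 148 FPKM. Of 18 neuroendocrine markers 4 were expressed, led by the neuropeptide NPY at 35.4, 35.2 and 36.8 FPKM, followed by ENO2 at 2.06 ± 0.319. CHGA, the granule protein by which neuroendocrine cells are recognised, measured 0.213.

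Mesenchymal and vascular markers were also mostly near 0. ACTA2 and LUM were the expressed members among 20 fibroblast and mesenchymal genes, at 2.15 ± 0.539 and 1.24 ± 0.211, and VIM, the intermediate filament of mesenchymal cells, measured 0.212, 0.0924 and 0.0559 FPKM. EGFL7 at 19.4 ± 1.598 was the single expressed gene of 10 endothelial markers, while PECAM1 and CDH5 measured 0.0112 and 0. EPOR at 3.01 ± 0.462 was the single expressed gene of 14 erythroid markers. The basal, club, neuroendocrine, mesenchymal and endothelial lists summed to 15.8 to 19.9, 140 to 186, 42.4 to 43.9, 5.21 to 6.61 and 18.6 to 21.9998 FPKM over the libraries, against 2741 to 2857 for the luminal list.

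Single genes of distant tissues nevertheless reached the threshold in all 3 libraries. CDX2, an intestinal transcription factor, measured 8.08, 8.15 and 9.82 FPKM, and SI and CDH17 were the other expressed genes of 12 intestinal markers at 3.00 ± 0.303 and 1.62 ± 0.262. Of 14 hepatocyte markers APOH at 7.63 ± 1.83, TTR at 3.32 ± 0.142 and ALB at 3.24 ± 0.459 were expressed. Of 12 breast markers TFF1 at 9.67 ± 1.34, ERBB2 at 4.00 ± 0.298 and SCGB1D2 at 2.92 ± 1.23 were expressed. The neurofilament gene NEFL at 10.9 ± 0.429 led 4 expressed genes of 13 neuronal and glial markers, followed by MBP at 2.75 ± 0.239, MAP2 at 2.06 ± 0.810 and TUBB3 at 1.48 ± 0.269. UPK3A at 2.53 ± 0.186 was the expressed gene of 8 urothelial markers, and TDRD1 that of 14 germ cell and pluripotency genes.

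**Figure D2:**
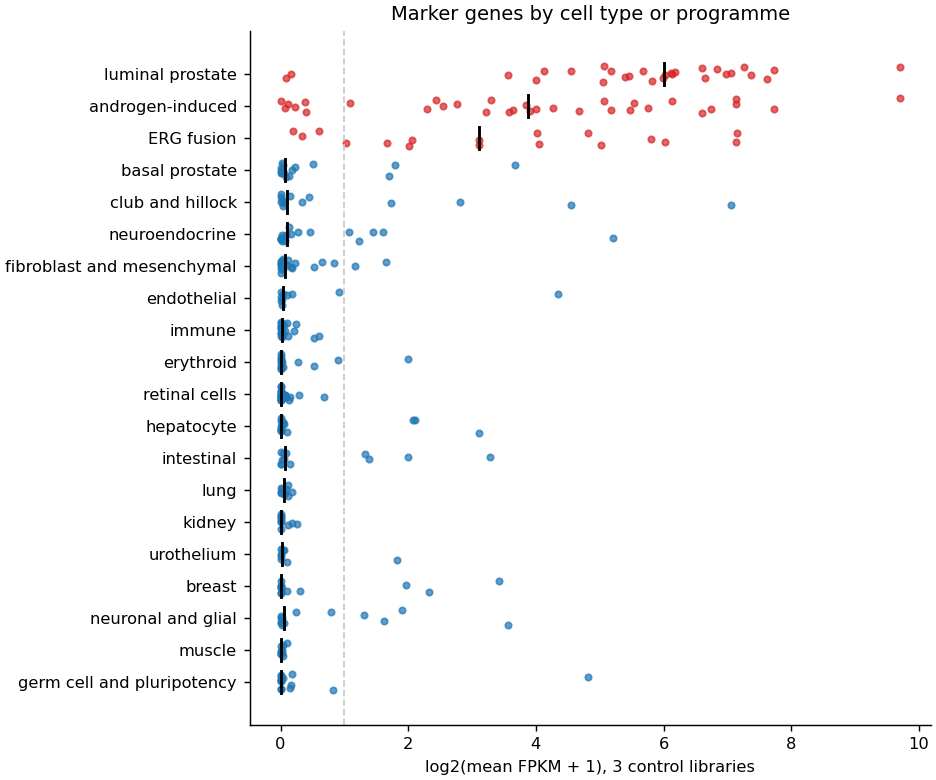
Each point is a gene, placed by log2(mean FPKM + 1) over the 3 control libraries, in rows by cell type or programme, with a black bar at the row's median and a dashed line at 1 FPKM. The luminal prostate genes lie around a median of 63.2 FPKM with 2 genes near 0, while the medians of all blue rows, the other cell types, lie near 0 with single genes such as SLPI, NPY and TDRD1 apart.

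The most abundant nuclear transcripts were those of protein synthesis. EEF1A1, which brings aminoacyl-tRNA to the ribosome, was the highest with 1753, 1953 and 1867 FPKM. All 79 cytosolic ribosomal protein genes were expressed, with a median of 182 FPKM, and held 8.22% ± 0.101 of the summed FPKM. They made up 36 of the 100 highest nuclear genes, led by RPL19 with 1189, 1230 and 1184 FPKM and RPS18 with 1179, 1267 and 1114. The lowest was RPS29 at 15.7 ± 1.77, so the members of the list spanned from 15.7 to 1201 FPKM on the deposited scale. All 29 translation factors were expressed too, with EEF2 at 757 ± 5.19 next after EEF1A1 and the lowest being EIF4E, the cap-binding protein, at 2.66 ± 0.130.

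The top 30 nuclear genes also held genes of other functions. ADIRF, an adipogenesis regulator, measured 948, 971 and 955 FPKM, above KLK2, but per principal length the order turned (791 against 1741). KLK2 was among the 2 luminal genes in the 100 highest, of which the lowest had 197 FPKM. HSP90AB1, a chaperone that also holds steroid receptors, measured 719 ± 20.6 FPKM. PEBP1, an inhibitor of RAF kinase, measured 461 ± 29.5 and SLC25A6, a mitochondrial carrier of ADP and ATP, 549 ± 2.94.

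Energy metabolism was represented in both genomes. The 13 mitochondrial mRNAs spanned from 2420 ± 298 FPKM for MT-ND6 to 13617 ± 485 for MT-CO1 and together held 30.5% ± 1.16 of the summed FPKM. The subunits of cytochrome oxidase, MT-CO1, MT-CO2 and MT-CO3, were the highest, at 13617, 13454 and 12630. Of the mitochondrial ribosomal RNAs, MT-RNR2 at 4048 ± 338 lay within the range of the mRNAs and MT-RNR1 at 923 ± 130 below it. All 71 nuclear genes of oxidative phosphorylation were expressed with a median of 30.2 FPKM, led by COX8A with 1206, 1152 and 1243 FPKM and ATP5F1B, the catalytic subunit of ATP synthase, at 538 ± 11.5. The nuclear subunits of the same complexes thus lay far below the mitochondrial ones on the FPKM scale.

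Glycolytic and lipid genes were broadly expressed. Of 20 glycolysis genes 19 were expressed, led by GAPDH with 1364, 1277 and 1518 FPKM and ENO1 with 195, 171 and 226. Most glycolytic enzymes were highest in control 3 and lowest in control 2, and the summed level of the list was 2399, 2287 and 2675. The lactate exporter SLC16A3 missed the threshold with 0.557, 0.392 and 1.01. All 24 cholesterol synthesis genes were expressed, with a median of 28.2 FPKM. TM7SF2, a sterol reductase, was the highest but differed between libraries (108, 122 and 179 FPKM). Of 16 fatty acid synthesis genes 13 were expressed, led by SCD, the stearoyl-CoA desaturase, at 270 ± 19.6, FASN at 162 ± 9.36 and ACACA at 71.9 ± 0.621.

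Protein quality control was likewise complete but for a single gene. Of 26 chaperones 25 were expressed, with a median of 90.4 FPKM, after HSP90AB1 the highest being HSPA8 at 386 ± 40.9 and the cyclophilin PPIA at 288 ± 36.1. HSPB1, the small heat shock protein HSP27 that many epithelial cells make at high levels, measured 0.158, 0.0523 and 0.0645 FPKM. All 34 proteasome genes were expressed, with a median of 22.2, and the 3 lowest were the immunoproteasome subunits PSMB10 at 3.56 ± 0.364, PSMB8 at 2.25 ± 0.130 and PSMB9 at 1.37 ± 0.182. Of 22 cytoskeletal genes 21 were expressed, led by TUBB4B at 439 ± 3.89 and ACTG1 at 434 ± 22.5, which stood above ACTB at 117 ± 9.92. VIM was the member below the threshold.

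The cells carried the transcripts of dividing cells. All 31 proliferation genes were expressed, with a median of 24.5 FPKM, from PCNA, the DNA polymerase clamp, with 136, 137 and 125 and TOP2A, topoisomerase II, with 106, 110 and 89.9 down to CCNE1, cyclin E, at 3.12 ± 0.337. MKI67, the usual proliferation marker, was higher in control 1 with 49.4, 28.2 and 27.0. Of the replication-dependent histone list 4 of 22 symbols were matched, and of these H1-2 was expressed with 66.0, 59.7 and 76.2.

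Of 34 tumour suppressors and oncogenes 23 were expressed (67.6%, against 50.0% of all protein-coding genes). CCND1, cyclin D1, was by far the highest with 229, 231 and 210 FPKM, and next came the cell cycle inhibitor CDKN1B at 38.0 ± 0.690. MYC showed how unsteady a single gene can be, with 3.98, 3.62 and 18.6 FPKM. KMT2C, the gene that the siRNAs of the other libraries target, measured 13.7, 12.1 and 12.9 FPKM (12.9 ± 0.806), close to its paralog KMT2D at 12.3 ± 0.468. Of the 11 members that were not expressed, 2 had no counts in any library.

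Hedgehog ligands were the highest members of their pathway list. SHH measured 86.0, 79.1 and 101 FPKM and IHH 32.5, 30.7 and 45.6, both highest in control 3. SCUBE2, which helps release the ligand, measured 29.6, 28.1 and 36.6. The receptor PTCH1 and the transducer SMO measured 2.57 ± 0.379 and 4.18 ± 0.0887, while GLI1, a target gene and effector of the pathway, had no counts. In all 8 of 17 genes were expressed (47.1%), near the 50.0% of all protein-coding genes.

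Most genes of the interferon and stress lists lay below 10 FPKM. Of 25 interferon-stimulated genes 12 were expressed (48%), near the 50.0% of all protein-coding genes. None of the 25 exceeded 10 FPKM, the highest being OAS3 with 9.33, 9.24 and 9.45 and ISG15 with 8.39, 7.19 and 9.77. Of 21 genes of hypoxia and acute stress 15 were expressed, with NDRG1 far above the rest and ATF4 unsteady at 17.2, 32.0 and 15.8. FOS, an immediate early gene, measured 0.340, 0.257 and 0.362. Of 24 surface antigens that serve as drug or antibody targets 18 were expressed. Beside the luminal antigens above, SLC39A6 measured 85.4 ± 1.54, SLC44A4 63.8 ± 4.23 and DLL3, a neuroendocrine target, 1.72 ± 0.140.

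Genes that are not protein-coding reached high ranks mainly as pseudogenes. Of 210 such genes at a mean of at least 10 FPKM, 169 (80.5%) were pseudogenes. The highest, MTATP6P1, measured 1686, 1941 and 1737 FPKM, and with MTCO1P12 and MTND2P28 it lies in a nuclear copy of mitochondrial DNA on chromosome 1. EEF1A1P5, a copy of EEF1A1, measured 742, 812 and 659. Such copies are nearly identical to their source genes, and reads of either can be counted for the other, so their levels are uncertain. C19orf48, whose annotated types include a unitary pseudogene, measured 282, 273 and 273 FPKM. It lies at 50797704 to 50804929 on chromosome 19, before the kallikrein cluster.

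The 3 libraries were close to each other. The median coefficient of variation (CV, SD over mean) of expressed genes was 7.67%, with an interquartile range of 4.34% to 13.6%. The counting error, the CV expected from the approximate number of fragments per gene, had a median of 4.20%. For 24.8% of the genes the CV lay below their own counting error, which a CV from 3 libraries can do by sampling alone. The median CV was 9.53% at 1 to 10 FPKM, 5.63% at 10 to 100 and 4.72% at 100 to 1000. The matching counting errors were 5.56%, 2.53% and 1.07%. Above 1000 FPKM, where most genes are mitochondrial, the median CV was 7.57% against a counting error of 0.487%. The spread of abundant genes was thus several times what their depth would give. Across 12631 genes Spearman's rho between pairs of libraries was 0.965 to 0.968 (a description, as genes are not independent). The common dispersion from edgeR, fitted on the deposited counts, was 0.0229, which edgeR terms a biological coefficient of variation of 15.1%. On counts divided by 4 it was 0.0198 (14.1%). The term is edgeR's, and the spread may be technical.

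**Figure D3:**
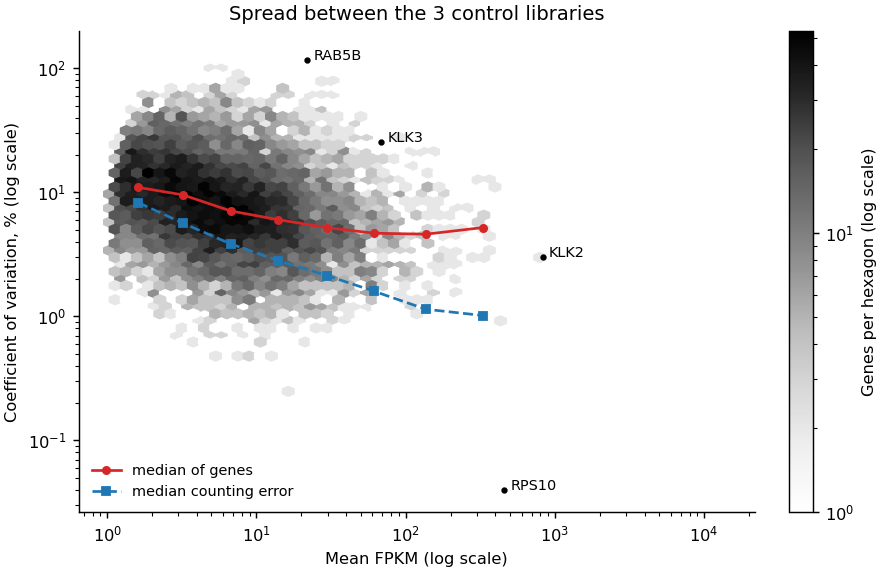
Coefficient of variation over the 3 control libraries against mean FPKM, on log axes, for the expressed genes (hexagons shaded by number of genes). The red line gives the median of genes and the blue dashed line the median counting error in bins of level: the lines are close near 1 FPKM and part at higher levels, with KLK3 (25.3%) above the red line and KLK2 (3.02%) below it.

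The steadiest genes above 10 FPKM were RPS10 with 458.8, 458.8 and 458.5 FPKM (CV 0.0398%), SF3A1, a splicing factor, with 21.6, 21.5 and 21.5, and TMEM245. With ICMT, DDI2, RPL12P4, IMPDH1, FAU, SLC35E1 and TAOK1 they made up the 10 lowest, with CVs of 0.244% or less. The CV of RPS10 thus lay below its counting error, which the lowest of many CVs from 3 libraries can do by sampling alone.

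A small set of genes differed strongly between the control libraries. Of 3588 genes with a mean of at least 10 FPKM and at least 300 bases, 48 (1.34%) had a CV of 50% or more. CLDN4, a tight junction protein, measured 58.04, 0.954 and 8.47 FPKM. Its mean was 22.5 over all libraries and 4.71 without control 1. RAB5B, a GTPase of early endosomes, measured 7.16, 51.1 and 7.29, and its mean of 21.9 became 7.23 without control 2. IGKC, an immunoglobulin constant region, measured 29.5, 3.42 and 2.10, and its mean of 11.7 became 2.76 without control 1. No single library accounted for these genes: control 1 stood apart as the highest in 9 and the lowest in 8 of them, control 2 in 10 and 6, and control 3 in 8 and 7.

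The library that stood apart differed from gene to gene. HACD2, an enzyme of fatty acid elongation, measured 8.92, 11.2 and 40.8 (highest in control 3), as did the cationic amino acid transporter SLC7A2 with 9.46, 7.41 and 28.5, TMEM230 with 13.7, 13.1 and 38.7 and SRP9 with 18.0, 24.2 and 60.3. The kinase gene UHMK1 was highest in control 2 with 7.59, 21.6 and 6.46. MRFAP1 was lowest in control 1 with 5.23, 47.1 and 44.5, and so was TP53INP2, which takes part in autophagy, with 2.94, 20.1 and 22.6. H3P36, a histone pseudogene, was lowest in control 3 with 17.9, 16.5 and 1.72.

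Some of these differences went with an opposite difference in an overlapping gene. TOMM6, a subunit of the mitochondrial import pore, measured 7.93, 86.1 and 91.2 FPKM (CV 75.6%), while a clone-named gene on the same strand that overlaps it had 3390, 614 and 730 counts. The sum of both, scaled for depth, had a CV of 10.7%. HNRNPH2, an RNA-binding protein, measured 22.01, 21.4 and 2.53, while its read-through gene with RPL36A had 0, 130 and 645 counts, and here the sum still had a CV of 56.0%. For RAB5B the sum with its overlapping gene on the other strand had a CV of 111%. Of the 48 genes 41.7% overlapped another gene, against 37.7% of all 3588. How reads were divided among overlapping genes is not given in the sources used here, and its part in these values was not tested.

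**Figure D4:**
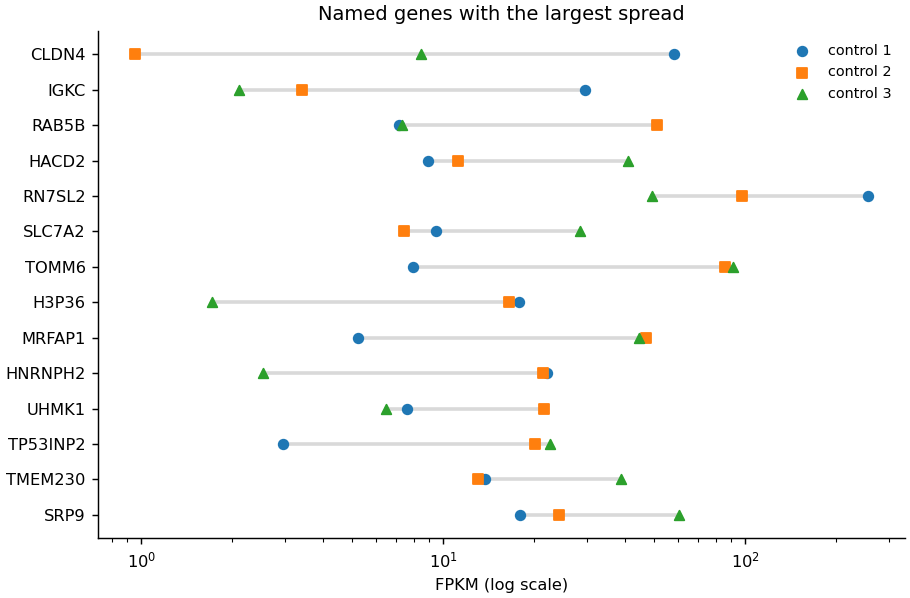
FPKM in each control library, on a log axis, for 14 of the 15 genes with the largest coefficient of variation among genes with a mean of at least 10 FPKM, ordered from the largest down. Circles, squares and triangles stand for control 1, 2 and 3, and the library that lies apart differs from gene to gene, as in CLDN4 (control 1 highest), RAB5B (control 2 highest) and HACD2 (control 3 highest).

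The 5 short structural noncoding RNAs named here, chosen after their values were seen, shared a single order over the libraries. RN7SL1, the RNA of the signal recognition particle, measured 304, 104 and 54.1 FPKM, and RN7SL2 255, 97.4 and 49.0. RN7SK, which holds the elongation factor P-TEFb, measured 86.9, 69.5 and 24.4, RPPH1, the RNA of RNase P, 48.5, 30.3 and 14.2, and RMRP 42.4, 27.6 and 24.7. All 5 were highest in control 1 and lowest in control 3. NEAT1, the scaffold of nuclear paraspeckles, measured 6.62, 2.00 and 1.98, whereas MALAT1 did not share the order with 55.02, 63.5 and 35.8. The mitochondrial ribosomal RNAs did not share it either, with MT-RNR1 at 892, 1066 and 812 and MT-RNR2 at 4140, 4331 and 3674. The first 5 are known to lack a poly(A) tail. How RNA was selected for the libraries is not given in the sources used here, and its part in these values was not tested.

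Expressed genes were spread over the genome (the Y chromosome was not analysed). The share of protein-coding genes that were expressed lay between 44.9% on chromosome 4 and 56.2% on chromosome 20, except on the X chromosome with 36.6% (310 of 846 genes). Among 306 KEGG pathways with at least 15 genes in the table, 52.5% of the 7775 annotated genes were expressed. Protein export was complete (23 of 23 genes), and mismatch repair (22 of 23), aminoacyl-tRNA biosynthesis (42 of 44), DNA replication (34 of 36) and the spliceosome (126 of 134) nearly so. At the other end stood olfactory transduction with 17 of 440 genes, nicotine addiction with 3 of 40 and taste transduction with 8 of 82.

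Promoter letters were compared between expression classes of protein-coding nuclear genes. RefSeq promoters (GRCh38.p14, the 250 bases before the start) were found for 15122 of 19660 genes, and for over 80% of the genes in each class from 1 FPKM up. TATAAA, on either strand, was present in 4.74% of promoters at 1 to 10 FPKM, 5.06% at 10 to 100 and 10.3% at 100 or more. CCAAT was present in 35.1%, 38.2% and 40.6%, GGGCGG, the GC box, in 68.3%, 72.0% and 67.4%, and CCGGAAGT, a motif of ETS factors, in 7.76%, 9.21% and 10.9%. The class of 100 or more rests on 175 promoters. Below 1 FPKM fewer than 80% of the genes had a promoter, which limits a comparison with those classes. Promoters were found for 70.9% of genes listed at 0 and 72.6% of genes above 0 and under 1. In that order TATAAA was present in 20.3% and 10.4%, and CCAAT in 34.5% and 31.7%. GGGCGG was present in 26.0% and 51.5%, and CCGGAAGT in 0.811% and 1.84%. The share with TATAAA thus did not rise steadily with level.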

How the data were processed

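Values came from 1 table of 60612 genes deposited by the authors, of which the columns of the 3 control libraries were used. Its deposited estimated counts are whole numbers. Its deposited FPKM divide, per the values, by the joined exon length for most genes (within 2% for 77.4% of 12073 checked). For some others the implied length was shorter than the principal transcript, as for ADIRF with 757 against 917 bases. Low counts peaked at 4, 8 and 12 (3957, 2133 and 1087 values), though 1 was also common (2242 values). From this 4 counts were taken as about 1 fragment, which no source used here states. The counting errors depend on this assumption. Genes without counts are listed at 0.0001 FPKM and were set to 0. Per the submitters' processing notes, Bowtie 0.12.2 was used, with the builds hg38 and mm8 named without a role. No source used here names the counting tool, strand setting or annotation. Of the identifiers, 58394 are in GENCODE 29 (GRCh38).

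With 1 group no test was made. CV and SD were computed with pandas 2.3.3, and dispersion with edgeR 4.0.16 (TMM) on the counts, with DESeq2 1.42.0 size factors as an alternative. Counting error covers counting only. The programs for CV and dispersion were run on simulated counts with a dispersion set below that found. There edgeR was run on counts divided by 4, so the dispersion fitted on the deposited counts was not checked. Members and gene lists were chosen with earlier results of these data known. Named genes were the markers, the 30 highest nuclear genes and mitochondrial genes of at least 300 bases, the 10 highest noncoding genes, up to 6 members per list and all expressed markers of other cell types, the 15 most and 10 least variable genes above 10 FPKM, and the neighbours of the markers. A few genes taken by this rule are not reported here. Others were chosen after their values were seen. Clone-named genes were counted but not named.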

Additional observations from a re-analysis of the deposited data

How the results depend on the processing

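No paired analysis was possible because the 3 control libraries form 1 group and no result comes from a test. At 5 FPKM, 5829 genes were expressed and 9 markers of other cell types. In TPM, made from the FPKM, the classes from 10 FPKM up held 7200, 1074 and 87 genes. Per length of the principal transcript, chosen after seeing the data, the upper classes held 431 and 47. The 100 highest genes held 46.9% among genes of at least 300 bases, 25.3% among nuclear genes, 25.03% of counts and 44.0% per principal length. The mitochondrial share was 36.0% of FPKM. The median CV was 5.23% at 10 FPKM, 27.99% with no filter and 5.25% to 6.70% with 1 library left out, where 2 libraries enter. The median SD of log2 values was 0.0897 with a pseudocount of 1, 0.108 with 0.1 and 0.111 with 0. The dispersion was 0.153 with no filter, 0.0198 on counts divided by 4 and 0.0209 to 0.0242 with 1 library left out. Spearman's rho was 0.917 over all genes with counts and 0.938 at 10 FPKM. Of the lists, 14 moved in their count at 5 FPKM and 2 at 0.5 FPKM. Leaving out a library changed the count of a single list by at most 1 member, as in the neuroendocrine list (4 to 5), and the count of markers of other cell types from 29 to at most 31. It changed the means of CLDN4, RAB5B and IGKC as given above. Levels in FPKM understate genes with many transcripts, since the median ratio of joined to principal length was 1.41, and 69 of the 100 highest nuclear genes remained so per principal length.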
